A study of Mus musculus with 2 samples.

Results

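Of 31 genes of T cells, natural killer (NK) cells and intraepithelial lymphocytes, listed by symbol, 28 had a value in a table of intestinal stem cell transcripts and 3 did not. For each symbol the row annotated to that gene alone was taken, and where a gene had several such rows the one with the highest mean signal was used. The 28 genes were 28 of 19200 protein-coding genes named in the table by the same rule. Lck, which encodes the kinase that starts signalling at the T cell receptor, was named on 0 rows. Cd27, a costimulatory receptor gene, shared its row with the microRNA gene Mir8113, and Gata3, a transcription factor gene of helper T cells and innate lymphoid cells, shared its row with the noncoding gene 9230102O04Rik, so neither was given a value.

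The samples were GFP-positive intestinal stem cells sorted from the small intestine of 8-week-old mice carrying Lgr5GFP-CreERT2, an allele in which the Lgr5 locus drives green fluorescent protein together with a tamoxifen-inducible Cre recombinase. Both groups carried this allele. They differed in circPan3, a circular RNA made from the Pan3 gene, which circPan3+/+ cells carry and circPan3-/- cells lack. Total RNA of each genotype was hybridised to 1 Affymetrix Clariom D mouse array, and the labels do not say how many mice each array stands for. With 1 array for each genotype the spread between samples is unknown, so differences are given without error or test and compare these 2 arrays. No row is annotated to circPan3 itself, so its deletion was not checked. Values are log2 signals, differences are circPan3-/- minus circPan3+/+, and the number of arrays limits the precision.

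Intraepithelial lymphocytes are mostly T cells that lie between the epithelial cells of the gut, held there in part by the integrin chain CD103 (gene Itgae) binding to E-cadherin (gene Cdh1) on the epithelium. Many carry the coreceptor CD8, NK-type receptors and the granzymes and perforin with which lymphocytes kill infected cells. They are a usual companion of epithelial cells when crypts are isolated, and a sort for GFP is meant to leave them out.

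Levels were set against the rows named as negative controls in the table. The limit used for each array was the 95th percentile of its 5222 negative control rows, 5.06 for circPan3+/+ and 5.56 for circPan3-/-, a gap of 0.50. A signal under its limit lies in the range of those controls. Above these limits stood 2 of 28 lymphocyte genes on the circPan3+/+ array, against 17.7% of all named genes, and 2 of 28 on the circPan3-/- array, against 16.6%. Only Gzma was above on both, where 13.6% of named genes were. Together 3 of 28 genes, Gzma, Gzmb and Cd69, exceeded a limit on at least 1 array, against 20.7% of named genes, and 25 were under the limits on both.

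**Figure D1:**
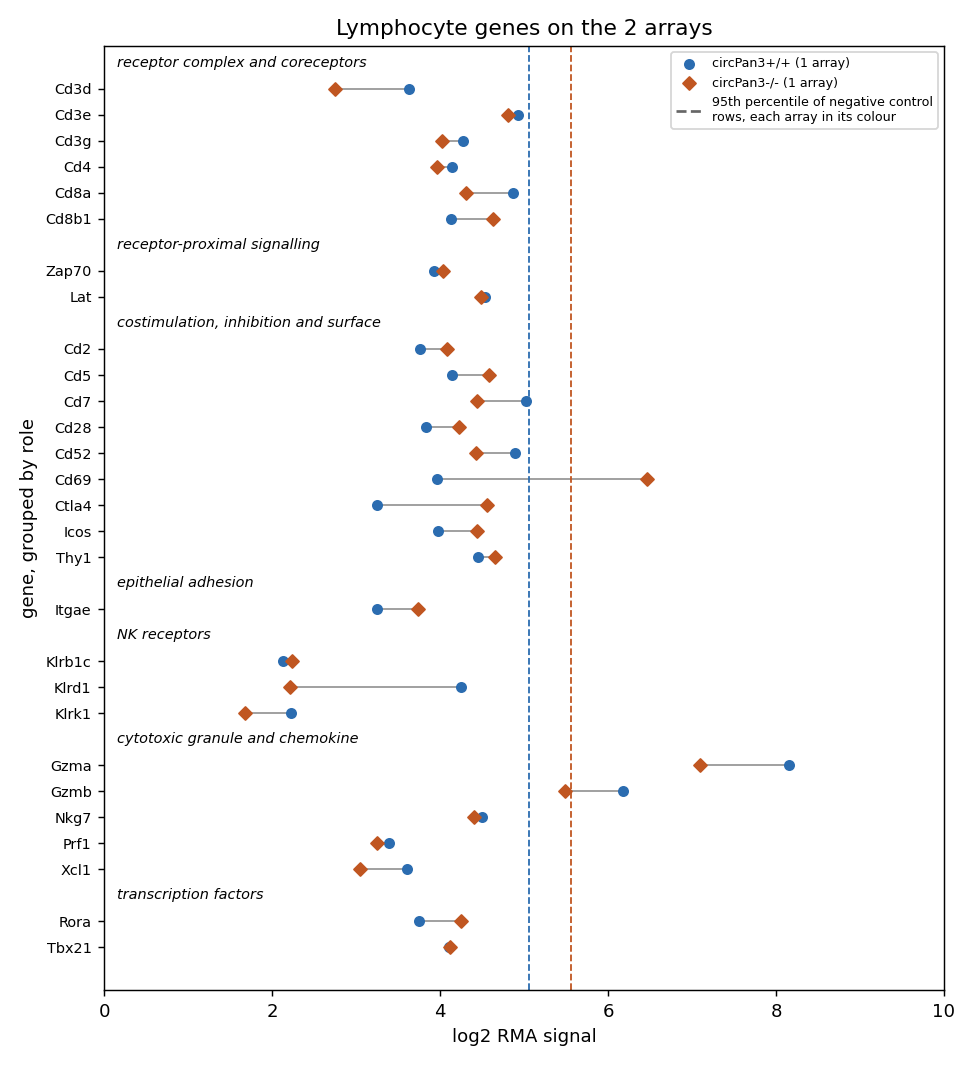
The horizontal axis is the log2 signal, and each line joins a gene's value on the circPan3+/+ array (circles) to that on the circPan3-/- array (diamonds), with genes grouped by role and dashed lines at the negative control limits of 5.06 and 5.56. Gzma lies right of both lines, Gzmb on the circPan3+/+ array and Cd69 on the circPan3-/- array pass theirs, and the other 25 genes lie left of both.

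The 2 arrays were not on the same footing, which bears on every difference. Named genes had a median difference of 0.27, as did the negative control rows, so a difference is also given after centring on that of named genes, after loess on level or after quantile normalization where it matters. Of all rows, 69.1% in the circPan3+/+ column repeated the exact value of another row, against 4.20% in the circPan3-/- column. Among the lymphocyte genes this applied to 13 of 28 circPan3+/+ values and 0 of 28 circPan3-/- values. Of the markers of the sorted cells, Epcam, an adhesion molecule gene of epithelium, had 8.51 in circPan3+/+ cells and 9.65 in circPan3-/- cells, and Lgr5, the stem cell receptor gene whose locus carries the reporter, had 10.91 and 7.02, a difference of -3.89 or 14.8-fold lower, all above the limits. The other stem cell genes listed did not share one direction: Olfm4 had 11.53 and 10.28, a difference of -1.25, while under the limits Smoc2 had 3.49 and 5.43, and Ascl2, named after its values were seen, 3.95 and 4.83. Ptprc, which encodes the leukocyte antigen CD45, had 5.67 and 5.49, above the limit on the circPan3+/+ array only.

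The 5 genes of cytotoxic granules and a lymphocyte chemokine held 2 of the 3 genes above a limit and had differences below 0 in 5 of 5 cases, on the deposited scale and after each of the 3 rescalings. Among named genes 25.0% were below 0 as deposited, 50.0% after centring, 50.3% after loess and 46.4% after quantile normalization. Gzma, which encodes granzyme A, a serine protease released from the granules of killer lymphocytes, had a signal of 8.15 in circPan3+/+ cells and 7.10 in circPan3-/- cells. It exceeded 99.04% of the negative control rows on the first and 98.4% on the second. The difference was -1.05, or 2.07-fold lower in circPan3-/- cells, and it was -1.33 after centring, -1.63 after loess and -1.33 after quantile normalization. Both Gzma values were held by no other row.

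Gzmb, the gene of granzyme B, which cleaves caspases in the target cell, had 6.17 in circPan3+/+ cells and 5.48 in circPan3-/- cells. The second value was just under its limit of 5.56, so the difference of -0.69 is given as a bound of at least 1.53-fold lower, from the circPan3+/+ signal to that limit. Gzmb passed 2-fold only after loess, at -1.20, and quantile normalization, at -1.04. The other genes of the group were under both limits. Prf1, which encodes the pore-forming protein perforin, had 3.39 and 3.25 and a difference of -0.15. Nkg7, a granule membrane protein gene, had 4.50 and 4.41, a difference of -0.09. Xcl1, the gene of a chemokine that attracts cross-presenting dendritic cells, had 3.60 and 3.04, a difference of -0.56. None of these 3 allows a fold, and at such levels a lymphocyte signal is not told apart from that of the control rows.

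Of the genes above a limit, Cd69 had no upstream sequence available to show. The 250 bases upstream of the start of Gzma and Gzmb, the others above a limit, are shown. They are RefSeq sequences of GRCm38.p6, chr13:113100982-113101231 for Gzma and chr14:56262335-56262584 for Gzmb, both on the minus strand and written 5′ to 3′ in the direction of the gene. Capitals mark matches to the letters TGTGGT, the core bound by RUNX factors, on either strand, and to TGANTCA, the AP-1 site, where N is any base.
Gzma: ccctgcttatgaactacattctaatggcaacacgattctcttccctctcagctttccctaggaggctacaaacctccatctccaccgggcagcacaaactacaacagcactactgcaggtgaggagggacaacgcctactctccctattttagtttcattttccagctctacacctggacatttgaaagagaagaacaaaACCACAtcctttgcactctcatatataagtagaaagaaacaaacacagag
Gzmb: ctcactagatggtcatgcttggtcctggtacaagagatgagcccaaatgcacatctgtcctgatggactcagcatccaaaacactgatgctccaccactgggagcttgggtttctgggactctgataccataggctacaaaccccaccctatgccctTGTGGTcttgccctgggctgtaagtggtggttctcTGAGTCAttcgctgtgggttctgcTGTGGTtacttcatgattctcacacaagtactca
Gzma held 1 RUNX match, on the opposite strand, beginning 50 bases before the start. Gzmb held RUNX matches beginning 93 and 34 bases before the start and an AP-1 match beginning 58 bases before it, and none of these overlap. The table held upstream sequence for 20 of the 31 listed genes, Cd69 not among them, so its upstream bases were not searched. A RUNX match stood in 9 of these 20, against 14.3% of all 17492 protein-coding genes with such a sequence. The 9 were Gzma, Gzmb, Klrb1c, Klrk1, Lck, Nkg7, Prf1, Xcl1 and Zap70, and thus included the whole cytotoxic group. The AP-1 letters stood in 1 of 20, Gzmb, against 7.19% of all genes. The cyclic AMP response element TGACGTCA stood in 1 of 20, Zap70, against 2.2%, and the EGR site GCGNGGGCG in 0 of 20, against 7.21%. Both strands were searched, and a match describes the letters and not a bound site.

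The subunits of the T cell receptor complex and its coreceptors lay under the limits throughout, with 0 of 6 above on either array, against 20.7% of named genes, and 5 of 6 differences below 0, against 25.0%. The 3 CD3 chains carry the receptor's signal into the cell and are found on all T cells. Cd3e had 4.92 in circPan3+/+ cells and 4.81 in circPan3-/- cells, a difference of -0.11. Cd3g had 4.27 and 4.03, a difference of -0.24. Cd3d had 3.63 and 2.75, a difference of -0.88, and it passed 2-fold after centring at -1.16, after loess at -1.09 and after quantile normalization at -1.14. The circPan3+/+ value of Cd3d stood in 159 rows, and its circPan3-/- value exceeded 60.8% of the negative control rows, against 84.8% for the circPan3+/+ value. Cd3e was the CD3 gene nearest to a limit, above 94.4% and 90.3% of the control rows. The 3 genes are direct neighbours in the RefSeq gene order, with 0 protein-coding genes between them.

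Cd8a, which encodes the CD8 chain that intraepithelial lymphocytes can carry as a homodimer, had 4.87 and 4.30, a difference of -0.57. Cd8b1, the gene of the second CD8 chain of conventional cytotoxic T cells, had 4.13 and 4.63, a difference of 0.50 in the opposite direction. These neighbouring genes kept their opposite signs on all 4 scales, with 0.11 for Cd8b1 and -0.98 for Cd8a after loess. Cd4, the coreceptor gene of helper T cells, had 4.14 and 3.96, a difference of -0.18. All 3 coreceptor genes were under the limits, so no fold is given.

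Of the signalling genes next to the receptor, Zap70, which encodes the kinase recruited to the phosphorylated CD3 chains, had 3.93 and 4.03, a difference of 0.10. Lat, the adaptor gene through which Zap70 acts, had 4.53 and 4.49, a difference of -0.05. Both were closer to 0 than the median of named genes, and Zap70 turned to -0.18 after centring.

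Among 9 measured genes of costimulation, inhibition and the cell surface, 7 had differences above 0 and 2 below, a share close to the 75.0% of named genes above 0. Cd69 was the only gene of the 28 above the limit on the circPan3-/- array alone. It encodes a C-type lectin that appears on lymphocytes soon after activation and stays on tissue-resident ones. Cd69 had 3.96 in circPan3+/+ cells and 6.46 in circPan3-/- cells, the largest difference of the 28 genes in either direction at 2.51. Counted from the circPan3+/+ limit it was at least 2.65-fold higher, and it was 2.23 after centring, 2.03 after loess and 2.18 after quantile normalization. Cd69 exceeded 88.2% of the negative control rows on the first array and 97.8% on the second, and neither value was shared with another row.

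Immediate early genes, which cells induce within minutes of a stimulus, also had differences above 0. In a list of 10 immediate early genes chosen after its value was seen, all 9 with a value were at least 2-fold higher in circPan3-/- cells, against 7.48% of named genes, with a median of 2.21. They ranged from 1.30 for Zfp36 and 1.52 for Dusp1 to 2.55 for Fosb, against 2.51 for Cd69. Fos had 6.38 and 8.71, a difference of 2.33, and Egr1 5.73 and 7.94, a difference of 2.21. On loess values 7 of them, including these 2 genes, were at least 2-fold higher, against 2.7% of named genes. Their part in the Cd69 value was not tested.

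Ctla4, an inhibitory receptor gene of activated and regulatory T cells, had 3.24 in circPan3+/+ cells and 4.55 in circPan3-/- cells, a difference of 1.31 under both limits. It was 1.03 after centring, 1.00 after quantile normalization and 0.99 after loess. Its circPan3+/+ value stood in 759 rows, among them that of Itgae. The costimulatory receptor genes next to it, Cd28 and Icos, had 3.83 and 4.22, and 3.97 and 4.44, with differences of 0.39 and 0.47. Cd28, Ctla4 and Icos are consecutive protein-coding genes, and all 3 were on the higher side on every scale while remaining within the range of the control rows.

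The other surface genes were within 2-fold on the deposited scale. Cd2, an adhesion receptor gene of T and NK cells, had 3.76 and 4.08, a difference of 0.32 that shrank to -0.02 after quantile normalization. Cd5, a gene of a receptor that dampens T cell receptor signals, had 4.14 and 4.58, a difference of 0.44. Thy1, which T cells share with stromal and nerve cells, had 4.46 and 4.65, a difference of 0.19 that turned to -0.08 after centring. These 3 were therefore at or near the shift of named genes.

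Cd7 and Cd52 were the genes of this group with differences below 0. Cd7, a marker gene of early T and NK cells, had 5.02 and 4.44, a difference of -0.58, with the circPan3+/+ value just under its limit of 5.06. It passed 2-fold only after loess, at -1.01. Cd52, which encodes a small surface glycoprotein found on lymphocytes and on myeloid cells, had 4.89 and 4.43, a difference of -0.46.

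Itgae, the CD103 gene that marks lymphocytes held in epithelium, had 3.24 in circPan3+/+ cells and 3.74 in circPan3-/- cells. The difference was 0.50, or 0.22 after centring. It exceeded 79.2% and 78.6% of the negative control rows, so its place among the controls was nearly the same on the 2 arrays.

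The NK receptor genes had low signals on both arrays. Klrd1, which encodes CD94, the partner chain of the NKG2 receptors, had 4.25 in circPan3+/+ cells and 2.21 in circPan3-/- cells. This difference of -2.05 was the furthest below 0 of the 28 genes, and on the other 3 scales it lay between -2.26 and -2.32. Klrd1 exceeded 90.6% of the negative control rows on the circPan3+/+ array and 47.9% on the other, but both values were under the limits, so no fold is given, and the circPan3+/+ value stood in 127 rows. Klrk1, the gene of the activating receptor NKG2D and the direct neighbour of Klrd1, had 2.23 and 1.68, a difference of -0.55. Klrb1c, the gene of NK1.1, had 2.13 and 2.24, a difference of 0.11, or -0.17 after centring. The circPan3+/+ values of Klrk1 and Klrb1c stood in 856 and 668 rows. Cd69 lies near them, with 8 protein-coding genes between it and Klrb1c and 11 between it and Klrd1. As deposited, Cd69 and Klrb1c were above 0 and Klrd1 and Klrk1 below 0. Of these genes only Cd69 exceeded a limit, so the directions of the others rest on values in the range of the controls.

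The transcription factor genes were close to the controls. Rora, an orphan nuclear receptor gene needed by group 2 innate lymphoid cells, had 3 rows, and the row used had 3.75 and 4.24, a difference of 0.50. Its other rows differed by 0.47 and 0.18, in the same direction. Tbx21, the gene of T-bet, which drives type 1 responses, had 4.10 and 4.11, a difference of 0.01, or -0.26 after centring.

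Taking the 28 genes as a list, 2 were at least 2-fold lower in circPan3-/- cells, Klrd1 and Gzma, against 2.17% of named genes, and 2 were at least 2-fold higher, Cd69 and Ctla4, against 7.48%. The remaining 24 were within 2-fold. With bounds from the limits, 1 gene, Gzma, was at least 2-fold lower, against 0.401% of named genes, and 1, Cd69, at least 2-fold higher, against 2.59%. A count of 1 or 2 genes is too small to be read against such shares. The median difference of the 28 was -0.07, against 0.27 over all named genes. Differences below 0 were found in 15 of 28, against 25.0% of named genes, and 19 of 28 were below the named-gene median.

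On the scale of the negative controls, 26 of 28 genes stood at a lower percentile on the circPan3-/- array than on the circPan3+/+ array, the exceptions being Cd69 and Ctla4. The same was the case for 62.0% of named genes. The 15 genes whose circPan3+/+ value was held by no other row had a median difference of -0.15, and for the 13 with a shared value it was 0.10. Of the 13, 0 exceeded a limit on either array. The share for named genes is 20.7%, but it covers genes with and without a shared value, so the sets are unlike. A shared circPan3+/+ value was found for 74.1% of named genes.

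**Figure D2:**
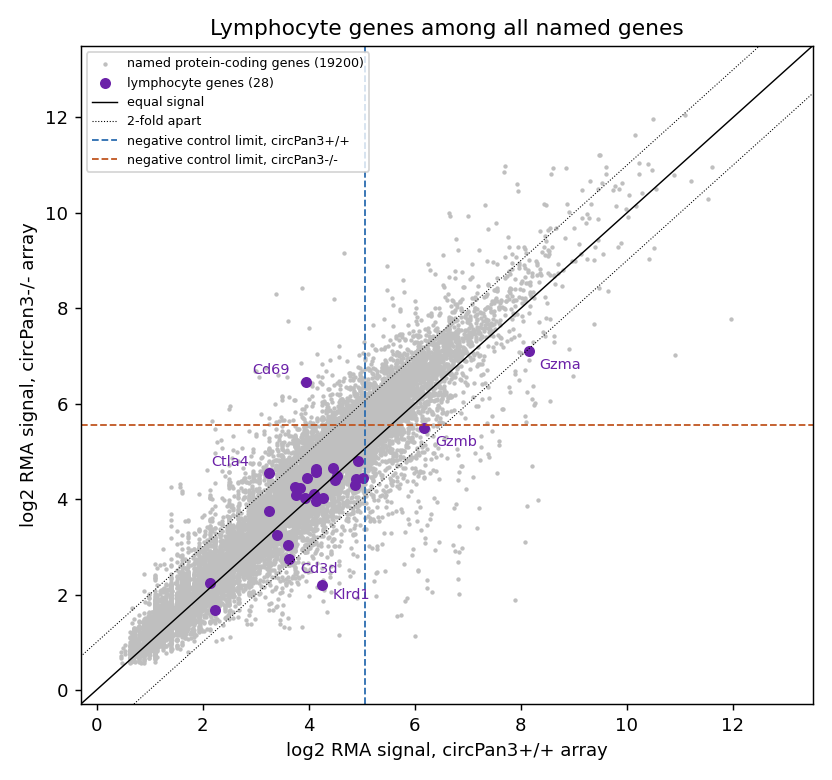
Each point is a gene, with its log2 signal on the circPan3+/+ array on the horizontal axis and on the circPan3-/- array on the vertical axis; grey points are the 19200 named genes and purple points the 28 lymphocyte genes. Most purple points fall left of and below the dashed control limits, where 25 of them lie under both, and Cd69, Ctla4, Klrd1 and Gzma lie outside the dotted 2-fold lines.

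Which other genes passed 2-fold depended on the scale. After centring, 3 were lower, with Cd3d added, against 3.5% of named genes, and 2 were higher, against 3.65%. After loess 5 were lower, with Cd3d, Cd7 and Gzmb added, against 3.91%, and Cd69 alone was higher, against 2.7%. Zap70, Thy1, Klrb1c and Tbx21 changed from above to below 0 under all 3 rescalings.

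**Figure D3:**
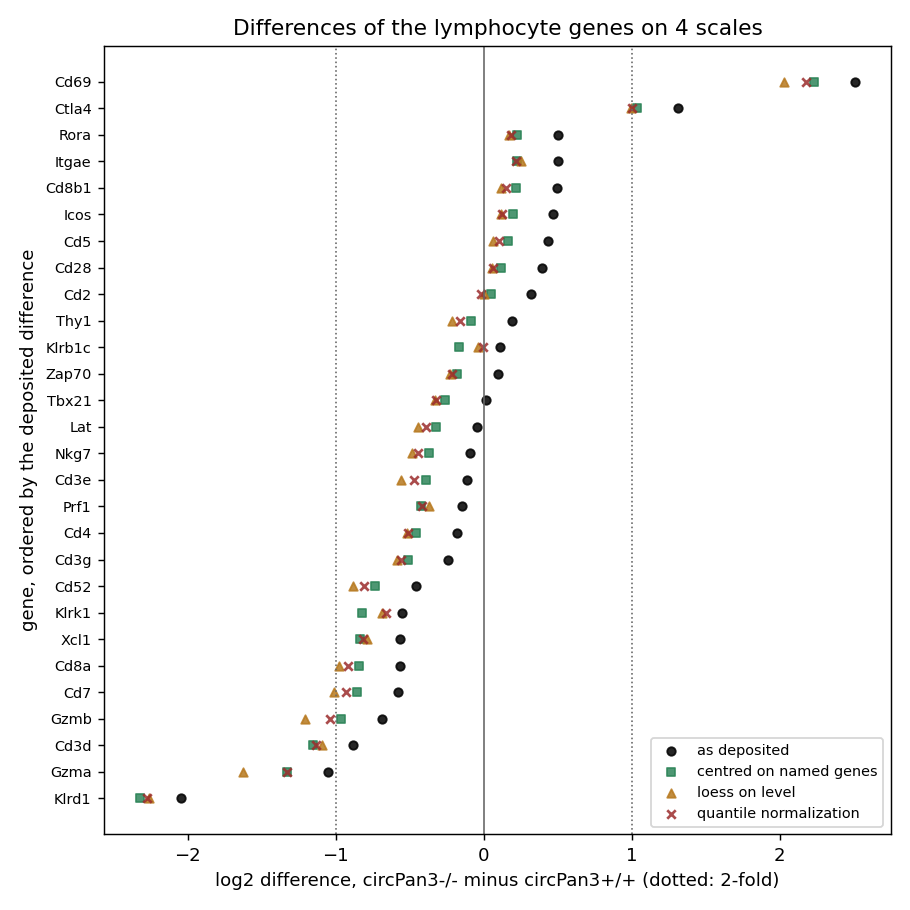
The horizontal axis is the log2 difference, circPan3-/- minus circPan3+/+, of each of the 28 genes as deposited and on 3 other scales, with dotted lines at 2-fold. Cd69 at 2.51 and Klrd1 at -2.05 stay outside the dotted lines on every scale, Gzma at -1.05 does so too, and Ctla4 falls just inside after loess.

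Most of the other genes listed for the same cells were also under the limits. The medians of these lists were above most single control rows, but no higher than those of named genes. Of 14 measured genes of the T cell receptor complex and its signalling, out of 21 listed, 3 were above the limit in circPan3+/+ cells, against 17.7% of named genes, and 0 in circPan3-/- cells, against 16.6%. Their medians exceeded 84.0% and 77.5% of the negative control rows, against 84.8% and 81.4% for named genes. Differences were below 0 in 9, against 25.0% of named genes, or in 10 after centring, against 50.0%. Of the 14, 1 was at least 2-fold lower, against 2.17%, and 1 higher, against 7.48%. Cd247, which encodes the zeta chain of the receptor, had 3.49 and 3.42. Lcp2, the gene of the adaptor SLP-76, which platelets and myeloid cells also use, had 5.85 and 5.19, at least 1.22-fold lower. Il7r, the interleukin 7 receptor gene, had 5.76 and 3.73, at least 1.15-fold lower when counted to the limit. Bcl11b, a T cell identity factor gene, had 4.13 and 5.50. Both its values were under the limits, so no fold is given, and its circPan3+/+ value stood in 106 rows.

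Of 20 measured NK and intraepithelial effector genes, out of 21 listed, 2 were above the limit in circPan3+/+ cells, against 17.7% of named genes, and 1 in circPan3-/- cells, against 16.6%. Their medians exceeded 71.2% and 64.5% of the control rows, lower than the 84.8% and 81.4% for named genes. Differences were below 0 in 10, against 25.0%, or in 15 after centring, against 50.0%. Ccl5, a chemokine gene of cytotoxic lymphocytes, was above on both, with 6.98 and 6.41, a difference of -0.57 or 1.48-fold lower. Il2rb, the gene of the receptor chain for interleukins 2 and 15, had 5.30 and 3.99, above the limit on the circPan3+/+ array only. It has no fold, since 5.30 is under the circPan3-/- limit of 5.56. Ifng, the interferon gamma gene, had 1.87 and 3.28, under both limits and without a fold. Ncr1, a marker gene of NK cells, had 2.67 and 2.57. Of the effector genes with a value, Ccl5 and Gzma were those above the limits on both arrays, and both had lower signals in circPan3-/- cells.

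A list of 23 genes, mostly ligands of lymphocyte receptors, had values for 18. Of these, 4 were above the limit on each array, against 17.7% and 16.6% of named genes. The list was not limited to epithelium. Cd48 was also among the pan-leukocyte genes listed below, and Xcr1 and Il15ra are receptor genes. The median difference of the 18 was 0.24, close to that of named genes. Differences were below 0 in 7, against 25.0%, or in 9 after centring, against 50.0%. The lowest were Cd86 at -0.90, Ulbp1 at -0.63 and Cd48 at -0.51, all under both limits. Of the 18, 1 gene, Cdh1, passed 2-fold on the deposited scale, against 7.48% higher among named genes. Cdh1, the E-cadherin gene, had 8.08 and 9.25, a difference of 1.16 or 2.24-fold higher, and 0.89 after centring. Btnl6, of the butyrophilin-like genes that support gamma delta T cells in the gut, had 5.40 and 5.57. Btnl2, of the same family, had 5.04 and 5.84, at least 1.72-fold higher. Ccl25, the gene of the chemokine that draws lymphocytes to the small intestine, had 5.17 and 5.73. Il15, which encodes a survival cytokine of intraepithelial lymphocytes, had 3.49 and 3.45, under the limits, and its circPan3+/+ value stood in 639 rows. H2-T23, whose product binds the Klrd1 receptor, H2-T3, H60b and the Raet1 ligand genes of Klrk1 had no value by the naming rule.

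Genes of leukocytes in general and of myeloid cells also had lower signals in circPan3-/- cells in most cases. In the counts that follow, the shares of all named genes to set beside them are 25.0% with differences below 0, 17.7% above the limit in circPan3+/+ cells and 16.6% in circPan3-/- cells. The summed linear signal of all named genes was 492913 in circPan3+/+ cells and 666664 in circPan3-/- cells. That of the 28 lymphocyte genes was 805 and 694. It was 521 and 557 without Gzma, and 789 and 606 without Cd69, so Gzma and Cd69 pulled the sum in opposite directions.

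Of 17 pan-leukocyte genes, 16 had differences below 0, with a median of -0.36, 10 were above the limit in circPan3+/+ cells and 3 in circPan3-/- cells, and their summed linear signal was 971 and 543. The 3 above on both were Cd53, a tetraspanin gene of leukocytes, with 8.23 and 6.37, Lcp1 with 6.54 and 5.82, and Rac2 with 6.47 and 5.70. Without Cd53 the sum was 671 and 460. Of 18 myeloid genes, 17 had differences below 0, with a median of -1.39, 11 were above the limit in circPan3+/+ cells and 1 in circPan3-/- cells, and the sum was 961 against 323.

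Of 9 B cell and plasma cell genes 7 had differences below 0, with a median of -0.20, 3 and 1 above the limits, and sums of 484 and 555. The higher sum came from Jchain, the gene of the joining chain of secreted antibodies, with 8.02 and 8.57, and the other 8 genes summed to 225 and 175. Of 10 stromal genes 5 were below 0, or 8 after centring, with a median of -0.17, 3 and 3 above the limits, and sums of 860 and 404. This fall of the sum came from Vim, an intermediate filament gene, with 8.91 and 7.16, and Sparc, a matrix protein gene, with 7.37 and 5.59. The other 8 stromal genes summed to 214 and 213, but not each of them was level. Among them Acta2, the smooth muscle actin gene, had 4.84 and 6.33, at least 2.42-fold higher. Dcn went the other way, with 6.41 and 4.89, at least 1.80-fold lower.

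Of 13 epithelial and stem cell genes 10 and 11 were above the limits, 3 had differences below 0, or 6 after loess, and the median was 0.78, or 0.14 after loess. Their sum was lower in circPan3-/- cells, at 8226 and 6555, against the sign of the median, and without Lgr5 and Olfm4 it was 3343 and 5178. The part of such cells in the lymphocyte values was not tested. In a sorted bulk sample, fewer cells of a type and less RNA in each of them cannot be told apart.

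**Figure D4:**
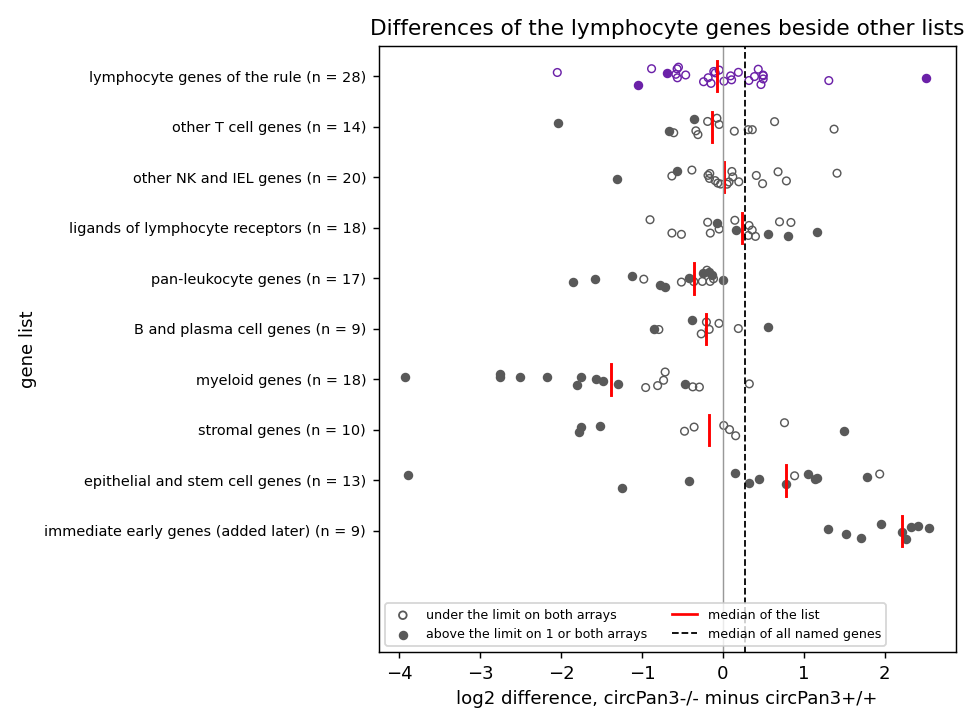
Each point is a gene, with its log2 difference, circPan3-/- minus circPan3+/+, on the horizontal axis and its list on the vertical axis; filled points were above a control limit on 1 or both arrays, red bars are list medians and the dashed line is the named-gene median of 0.27. The lymphocyte genes have a median of -0.07 and mostly open points, the myeloid genes a median of -1.39, and the immediate early genes, added after the data were seen, a median of 2.21.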

How the data were processed

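The authors deposited 1 log2 signal for each transcript cluster and array. Per the submitters' processing notes they used Affymetrix Power Tools and RMA; their versions and the build are not given in the labels, and the log2 base was taken from the values, since the deposited table states no unit. Rows were named from the platform annotation, updated through the RefSeq gene table (GRCm38.p6). Of the rows, 31208 had 1 symbol, 1542 several, which were not named, and 33206 transcript clusters none. Named genes are the 19200 protein-coding ones, with no filter on level. Fold differences were counted at 2-fold. Where 1 value was under its array's limit, a bound was counted from the other value to that limit. No fold is given where the other value did not exceed that limit, or where both values were under their limits. With 1 array for each genotype no test was possible. Alternatives were centring, loess (span 0.3), quantile normalization, the mean of a gene's rows, a filter at the median of all rows, 1.5-fold, and limits at the 90th and 99th percentile; added after seeing the data were limits at the brightest background probe bin, genes with unshared values, centring on negative controls and sums without a list's dominant genes. All listed lymphocyte genes are named; of the other lists up to 3 genes at each end, those above both limits and the defining genes could be named. The immediate early list was added after seeing the data, and the members and other lists were chosen with earlier results of these data known. Functions were tested on simulated data. Computations used Python 3.11.15 and statsmodels 0.14.6.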

Additional observations from a re-analysis of the deposited data

How the results depend on the processing

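The counts at 2-fold depend on the scale. The 2 lower genes became 5 with loess, 4 with quantile normalization, 4 at 1.5-fold and 1 among genes with unshared values. The 2 higher genes became 1 with loess and 1 among unshared values. The median of -0.07 became -0.34 after centring, -0.41 with loess, -0.40 with quantile normalization and -0.34 when centred on negative controls. Genes above the limits depend on the percentile: at the 90th, 11 were above on the circPan3+/+ array, 4 on the circPan3-/- array and 3 on both, and at the 99th 1, 0 and 0. With the brightest background probe bin as the limit, these counts were 2, 2 and 1, as with the limit used. No share of named genes is given for these other limits, 1.5-fold, quantile normalization or unshared values. The counts at those settings therefore have no background to be read against. Among the 28 genes, the side of the 2-fold threshold was kept by 27 after centring, 24 with loess, 26 with quantile normalization and 28 with the mean of all rows. Leaving out a replicate could not be run with 1 array for each genotype. No paired analysis was possible because each group has 1 array.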
